A study of Mus musculus with 24 samples.

Results

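The glutamate system of the aged hippocampus was followed through 31 genes chosen by symbol from the deposited hippocampal tables, which list 24411 genes. They comprise 17 ionotropic receptor subunits (4 AMPA, 5 kainate, 7 NMDA and 1 delta), 6 metabotropic receptors, 3 glutamate transporters of the plasma membrane, 3 vesicular glutamate transporters and 2 enzymes, serine racemase (Srr) and glutamine synthetase (Glul). Whole hippocampi came from male C57/Bl6 mice aged 20 months that received 8 tail vein injections of 100 μl over 24 days. The mice were given saline (n = 5 mice), the young blood plasma preparation, called young plasma here (n = 6 mice), or the young platelet fraction, the platelets collected from such plasma (n = 6 mice). The blood donors were 3 months old. In a second experiment, microglia were isolated with CD11b beads from hippocampi of aged mice given saline (n = 3) or platelet factor 4, a chemokine stored in platelets, at 5 μg per ml (PF4, n = 4). Per the study, these mice were also male, of the same strain, aged 20 months and injected on the same schedule. All mice were perfused with ice-cold buffered saline before the tissue was taken, and a hippocampal library is 1 mouse.

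Glutamate is the main excitatory transmitter of the hippocampus. Vesicular transporters load it into synaptic vesicles, AMPA and kainate receptors carry fast currents, and NMDA receptors, which always hold the Grin1 subunit, need glycine or D-serine bound beside glutamate before they open. Metabotropic receptors act through G proteins, and several of them (Grm2, Grm3, Grm4, Grm7 and Grm8) lower cyclic AMP and restrain release. Transporters on astrocytes (Slc1a2, Slc1a3) and on neurons (Slc1a1) remove glutamate, Glul turns it into glutamine within astrocytes, and Srr makes D-serine from L-serine.

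Values are normalized counts, the reads of a gene over the size factor of its library. The hippocampal libraries held 6140510 to 10522699 counted reads and the microglia libraries 19855188 to 36342162. Median depth was 8629386 reads in saline hippocampi, 6742428.5 after young plasma (at most 7739868) and 7066300.5 after the platelet fraction (at most 7438930). Depth thus differed between the groups, and its part in the results was not tested. Neuronal, astrocyte and oligodendrocyte markers were present in every hippocampal library, with a summed level of 6 general neuronal markers between 38278 and 50689. The first principal component of all tested genes held 25.2% of the variance and set 5 libraries apart, namely saline mice 7146 and 7152, young plasma mice 7147 and 7150 and platelet fraction mouse 7148. Member calls that were gained or lost without these 5 libraries are given with both values. In whole tissue, fewer cells of a type and less RNA per cell cannot be told apart.

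**Figure D1:**
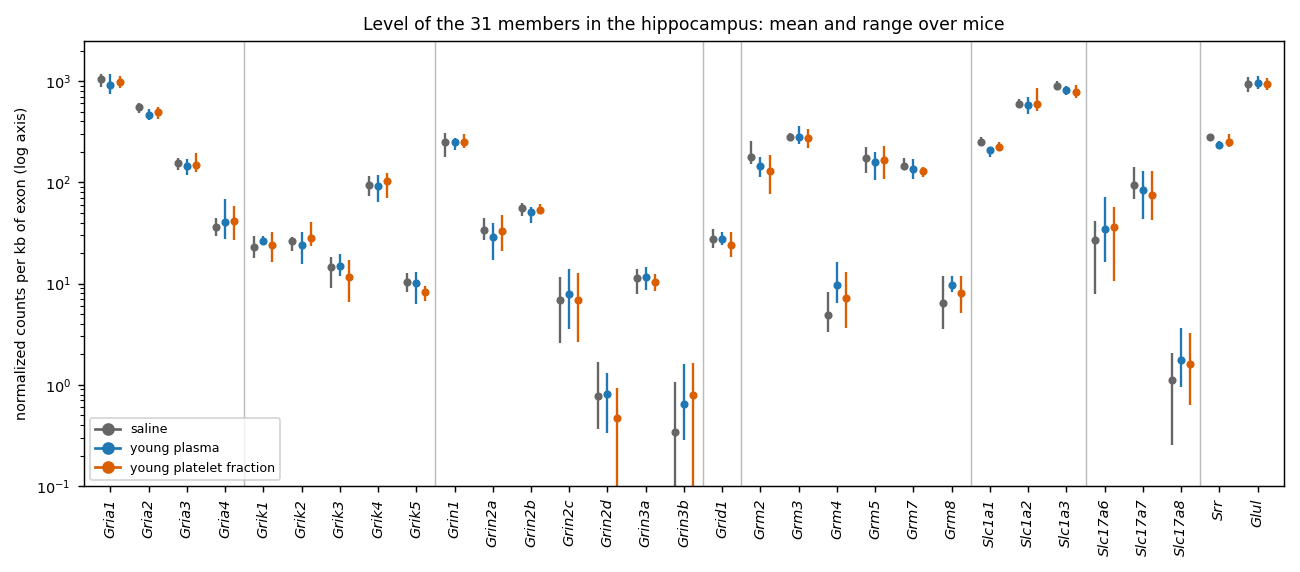
Level of each of the 31 genes in the hippocampus, in normalized counts per kb of exon on a log axis, as the mean (point) and range over mice (line) for saline, young plasma and the young platelet fraction, with lines that reach 0 ending at the lower edge. Gria1, Glul and Slc1a3 stand highest, between 885 and 1044 in saline, and Grin2d and Grin3b lowest, below 1.

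Levels were compared between genes after division by the summed length of each gene's exons. In saline-treated mice the AMPA subunit Gria1 had the highest level of the 31 genes, 1044 ± 114 normalized counts per kb (SD, n = 5). Glul followed with 938 ± 115 per kb and the astrocyte transporter Slc1a3 with 885 ± 74.4 per kb, and the ranges of neighbours in this order overlapped. Slc1a3 lay above Slc1a2 (597 ± 37.8 per kb) in every saline mouse, with no overlap of the ranges, and Gria2 (548 ± 61.6 per kb) lay above Srr (283 ± 15.9 per kb) in the same way. With the length of the longest transcript instead, Slc1a3 came first and Gria1 second, so the order at the top depends on which transcripts are counted.

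Among ionotropic subunits, AMPA subunits ran from Gria1 and Gria2 through Gria3 (155 ± 14.3 per kb) to Gria4 (36.3 ± 5.53 per kb). The obligatory NMDA subunit Grin1 stood at 247 ± 46.4 per kb, above Grin2b (55.6 ± 6.56 per kb), the subunit typical of early development and extrasynaptic sites, and Grin2a (33.7 ± 7.25 per kb). Grin2c, Grin2d and Grin3b were sparse. Of the 5 kainate subunits, Grik4, known from CA3 neurons, led with 94.0 ± 15.4 per kb, and the other members lay between 10.4 per kb (Grik5) and 26.3 per kb (Grik2). Gria1 was present at 6497, 5284, 6542, 6057 and 7150.2 normalized counts in saline mice 7143, 7146, 7152, 7155 and 7596. After young plasma it ran from 4523 through a median of 5145 to 7076, and after the platelet fraction from 5124 through 5891 to 6719, so the groups overlapped. Grin1 stood at 1739, 2579, 2978, 2375 and 2319 normalized counts in the saline mice in the same order, and the treated groups, from 2016 through a median of 2545 to 2685 after young plasma and from 2139 through 2427 to 2919 after the platelet fraction, lay within that range. Grik4 stood at 598, 513, 566, 440.4 and 685 in saline, from 378 through 540.3 to 701 after young plasma and from 419 through 646 to 739 after the platelet fraction. The delta receptor Grid1, which sits at synapses without passing a glutamate current, stood at 183, 139.8, 205, 135 and 158 in saline. Its treated groups ran from 143 through 164 to 194 and from 109 through 142 to 194, so that mouse-to-mouse spread covered all group differences of these 3 subunits.

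Among metabotropic receptors, Grm3 was highest (282 ± 19.7 per kb in saline), followed by Grm2 (177 ± 43.3 per kb), Grm5 (173 ± 46.0 per kb), which couples to calcium release, and Grm7 (146 ± 18.0 per kb). The ranges of Grm2, Grm5 and Grm7 overlapped. With the longest transcript as length, Grm5 (220 per kb) and Grm7 (204 per kb) stood above Grm2 (184 per kb). Grm8 (6.37 ± 3.23 per kb) and Grm4 (4.87 ± 1.94 per kb) were the sparsest of the 6. Grm3, found on astrocytes as well as neurons, stood at 797, 905, 939, 836 and 821 normalized counts in saline, and ran from 729 through a median of 789 to 1096 after young plasma and from 662 through 828 to 1025 after the platelet fraction. Both treated groups had mice above and below all saline mice. Among vesicular transporters Slc17a7, the form of cortical and hippocampal principal neurons, stood at 94.9 ± 29.9 per kb and Slc17a6, the form of thalamic neurons, at 27.0 ± 12.2 per kb. Slc17a7 stood at 385, 581, 759, 371 and 463 normalized counts in saline, from 236 through 409 to 698 after young plasma and from 226 through 351 to 702 after the platelet fraction. The high values belonged to the 5 libraries apart. Glul, the higher of the enzymes, stood at 3283, 2975, 3626, 2591 and 3103 normalized counts in saline, from 2772 through 3094 to 3699.8 after young plasma and from 2683 through 3095 to 3528 after the platelet fraction, 3 groups with nearly equal medians. Grin2d, Grin3b and Slc17a8 did not pass the filter of 10 normalized counts in 5 libraries and were not tested. They had at most 10, 5 and 17 reads in a hippocampus.

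The effect of young plasma on these genes was tested against saline. Srr, the neuronal transporter Slc1a1 and the AMPA subunit Gria2 were lower, with folds of 0.824 to 0.841, and the sparse presynaptic receptors Grm4 and Grm8 were higher, Grm4 about 1.97-fold and Grm8 about 1.64-fold. These were 5 of the 28 tested members (17.9%), where 456 of all 13594 tested genes (3.35%) passed an unadjusted P of 0.05 with limma. By direction, 3 of 28 were lower (10.7%, against 1.51% of all genes) and 2 of 28 higher (7.14%, against 1.85%). The members were chosen with earlier results of these data known, so these shares are a description and no test of enrichment. The median log2 fold change was -0.06 over the 28 members and -0.01 over all genes. No gene passed a Benjamini-Hochberg adjusted p of 0.05 with limma, edgeR or DESeq2, and the smallest adjusted p of a member was 0.9997 with limma.

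**Figure D2:**
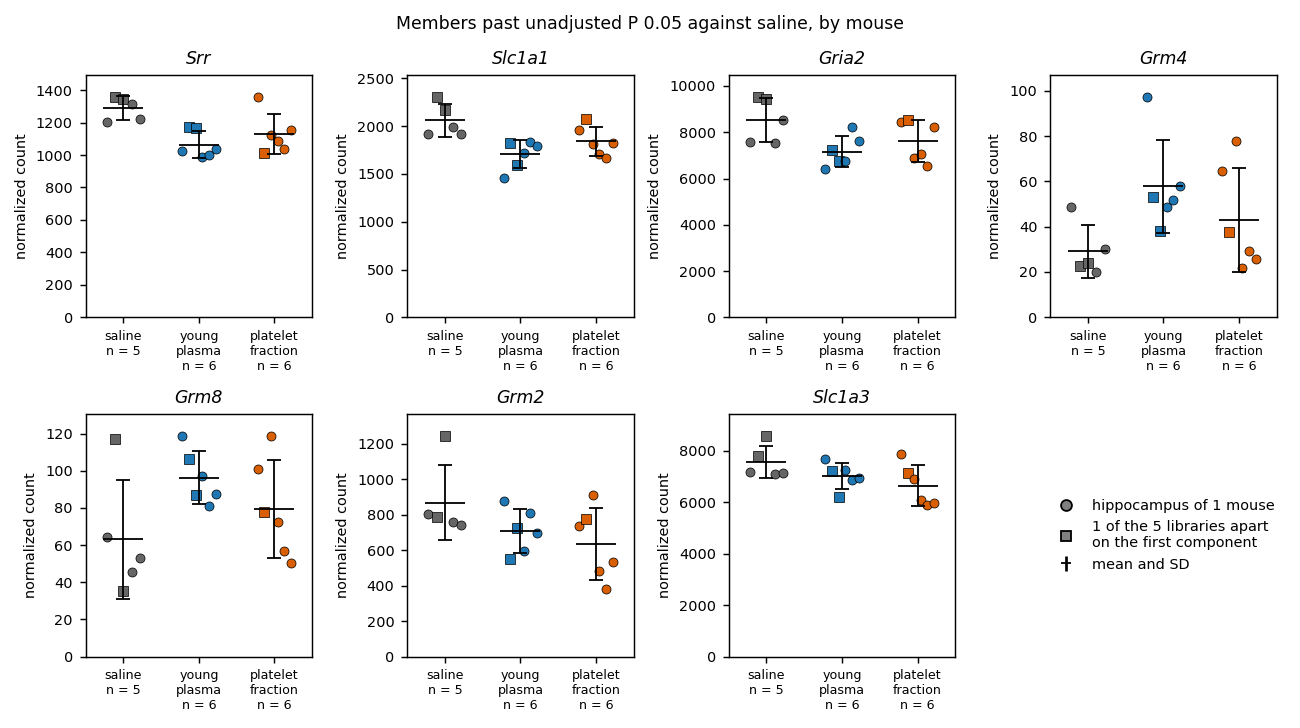
Normalized count per hippocampus (points, squares for the 5 libraries apart on the first component) with mean and SD (bars) of the 7 genes past an unadjusted P of 0.05 against saline after either treatment, with axes starting at 0. Srr and Slc1a1 in all 6 young plasma mice sit below all 5 saline mice, at most 1171 and 1839 against at least 1203 and 1917.

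Srr stood at 1203, 1359, 1348, 1316 and 1222 normalized counts in saline mice 7143, 7146, 7152, 7155 and 7596. After young plasma it stood at 1023, 1171, 1165, 990.0, 1001 and 1035 in mice 7144, 7147, 7150, 7156, 7159 and 7594. Every young plasma mouse thus lay below every saline mouse, with a mean of 1064 ± 82.1 (SD) against 1290 ± 72.3 (SD). The log2 fold change was -0.28 (SE 0.07), a fold of 0.824 with a 95% interval of 0.739 to 0.920 (P = 0.00222 with limma, two-sided exact permutation p = 0.00649). The smallest permutation p that 6 against 5 mice allows is 0.00216. The call held in all 21 alternatives tried, with log2 fold changes from -0.31 to -0.26, and the log2 fold change was -0.30 without the 5 libraries apart. Exons of Srr share 1240 bases with Tsr1 and 126 with Smg6 on the opposite strand, and whether counting used strand is not given in the sources used here. Tsr1 stood at 320 ± 32.0 normalized counts in saline and 294 ± 36.9 after young plasma, and Smg6 at 170.1 ± 40.6 and 163 ± 29.9 (SD), and neither passed the threshold.

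Slc1a1, which carries glutamate, aspartate and cysteine into neurons, stood at 1917, 2309, 2168, 1995 and 1917 in the saline mice in the same order. After young plasma it stood at 1462, 1826, 1597, 1723, 1839 and 1796, again with every treated mouse below every saline mouse. The fold was 0.828 (95% interval 0.732 to 0.936, P = 0.00545 with limma), and the exact permutation p of 0.00216 was the smallest the design allows. Of all tested genes, 0.0883% had every young plasma mouse below every saline mouse, and 2 of the 28 members did. Without the 5 libraries apart, the log2 fold change of Slc1a1 was -0.19 and did not pass the threshold, a fit of 7 mice. Slc1a1 shares 2631 exon bases with the antisense gene 4430402I18Rik, which stood at 18.9 normalized counts in saline and 18.7 after young plasma. Slc1a2 and Slc1a3 had folds of 0.954 (0.823 to 1.11) and 0.929 (0.831 to 1.04) and passed no threshold.

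Gria2, the AMPA subunit that keeps calcium out of the channel, stood at 7599.9, 9541, 9423, 7539 and 8512 in saline. After young plasma it stood at 6406, 7213, 6741, 6758, 8207 and 7639, and 4 of the 6 mice lay below every saline mouse. The fold was 0.841 (95% interval 0.736 to 0.961, P = 0.0151 with limma), with an exact permutation p of 0.0281. The 2 highest saline values were those of mice 7146 and 7152, both among the 5 libraries apart. Without the 5 libraries the log2 fold change of Gria2 was -0.12 and did not pass the threshold. The other 16 ionotropic subunits included 14 tested ones, none of which passed the threshold, from Grin2a at -0.28 to Grik1 at 0.22 on the log2 scale. The intervals of Gria1 (fold 0.726 to 1.04) and Grin1 (0.847 to 1.24) bound the differences these mice could show.

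Grm4, a presynaptic receptor best known from cerebellar granule cells, stood at 48.8, 22.8, 23.8, 20.0 and 30.2 normalized counts in saline, from 18 to 60 reads. After young plasma it stood at 97.4, 53.3, 38.0, 48.7, 51.8 and 58.1, from 38 to 92 reads, and 4 of the 6 mice lay above every saline mouse. The log2 fold change was 0.98 (SE 0.27), a fold of 1.97 with a 95% interval of 1.32 to 2.94 (P = 0.00292 with limma, exact permutation p = 0.0130). Mouse 7144 was far above the rest of its group, and without it the log2 fold change was 0.82 and still passed the threshold. Grm8, also presynaptic, stood at 64.2, 117, 35.2, 45.6 and 53.2 in saline and 119, 107, 87.0, 97.3, 81.0 and 87.7 after young plasma. All young plasma mice lay above 4 of the 5 saline mice, and saline mouse 7146 lay within their range. The fold was 1.64 (95% interval 1.13 to 2.39, P = 0.0139 with limma, exact permutation p = 0.0325), and its log2 value ranged from 0.54 without saline mouse 7152 to 0.97 without saline mouse 7146. Grm2, Grm3, Grm5 and Grm7 had log2 fold changes between -0.28 and -0.03 and did not pass the threshold.

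Markers of several cell types moved with young plasma, and their part in these results was not tested. All 8 oligodendrocyte markers were higher, with summed levels of 39931 to 78338 in saline and 51249 to 114867 after young plasma, and no marker of the list was at 0 in a group. Of 8 dentate granule cell markers, Prox1, Stxbp6 and Trpc6 were lower, and the list summed to 2875 to 6618 in saline and 2327 to 4634 after young plasma. Of 6 ependymal markers Cdhr3 was higher (log2 fold change 1.31), and of 4 tested CA2 markers Amigo2 was (0.40). None of 6 general neuronal markers passed the threshold (43188 to 46125 in saline, 38278 to 50689 after young plasma). Per 1000 normalized counts of these neuronal markers, Srr ran from 26.9 to 30.1 in saline and 23.0 to 28.3 after young plasma, and Slc1a1 from 42.1 to 50.1 and 31.5 to 45.0, so on this scale both groups overlapped. Beside the rise of Grm4 and Grm8, the 10 thalamus and habenula markers summed to 919 to 1070 in saline and 1014 to 1390 after young plasma. Of the 6 tested, 0 passed the threshold with limma. In isolated microglia the same list summed to 10259 to 13960, so its sum is not a level of thalamus or habenula tissue alone.

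To show the sequence context of genes that passed the threshold after young plasma, the bases upstream of their RefSeq starts are given. Srr, Slc1a1 and Gria2 were lower and Grm8 was higher. Whether these genes are regulated together was not tested. The table used here has no entry for Grm4. Capitals mark the GC box GGGCGG or its reverse complement CCGCCC, the site bound by Sp family factors. Bases that lie within the GENCODE gene model were left off for Slc1a1 and Grm8.
Srr, GRCm38.p6 chr11:74925949-74926198, minus strand: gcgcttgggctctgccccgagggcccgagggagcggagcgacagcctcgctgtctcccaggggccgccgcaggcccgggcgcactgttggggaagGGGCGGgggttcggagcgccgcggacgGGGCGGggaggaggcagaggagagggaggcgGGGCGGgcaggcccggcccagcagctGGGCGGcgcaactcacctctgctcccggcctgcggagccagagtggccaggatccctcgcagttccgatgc
Slc1a1, GRCm38.p6 chr19:28834885-28835048, plus strand: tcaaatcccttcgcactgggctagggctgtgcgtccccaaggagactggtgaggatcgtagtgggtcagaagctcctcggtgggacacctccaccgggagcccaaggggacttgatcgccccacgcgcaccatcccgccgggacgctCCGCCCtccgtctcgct
Gria2, GRCm38.p6 chr3:80802836-80803085, minus strand: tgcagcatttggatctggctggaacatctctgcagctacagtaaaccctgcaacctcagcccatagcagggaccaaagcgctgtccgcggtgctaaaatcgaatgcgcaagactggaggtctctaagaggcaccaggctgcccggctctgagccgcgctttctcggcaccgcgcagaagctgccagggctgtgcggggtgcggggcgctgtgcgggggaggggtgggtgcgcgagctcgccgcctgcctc
Grm8, GRCm38.p6 chr6:28135179-28135396, minus strand: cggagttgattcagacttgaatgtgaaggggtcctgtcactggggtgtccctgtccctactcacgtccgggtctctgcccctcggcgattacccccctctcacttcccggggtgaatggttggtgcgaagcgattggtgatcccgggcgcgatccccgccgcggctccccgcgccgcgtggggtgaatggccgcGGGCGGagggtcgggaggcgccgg

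The Srr stretch holds 4 GC boxes, those of Slc1a1 and Grm8 hold 1 each, and that of Gria2 holds 0. The motif lies in 32.7% of 32851 promoter windows of 250 bases and in 15 of the 27 windows found for 22 members. The cyclic AMP response element half-site TGACG or its reverse complement CGTCA, present in 17.8% of all windows, and the full element TGACGTCA, which contains both half-sites and is present in 1.55%, were not found in the printed stretches. The printed stretches of Srr, Slc1a1, Gria2 and Grm8 are 76.8%, 66.5%, 64.8% and 68.3% G and C, against 53.2% over all windows.

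The young platelet fraction was compared with the same saline mice, so that the results of both treatments share their controls. Srr, the metabotropic receptor Grm2 and the astrocyte transporter Slc1a3 were lower, with folds of 0.716 to 0.875, and no member was higher. These were 3 of 28 tested members (10.7%), where 527 of 13603 genes (3.87%) passed the threshold with limma and 1.46% of all genes were lower. As for young plasma, this share describes a list chosen with earlier results known. The median log2 fold change was -0.06 over the members and 0.00 over all genes, and the smallest adjusted p of a member was 0.998 with limma. Over all genes 0 passed an adjusted p of 0.05 with limma or edgeR and 11 with DESeq2, none of them a member.

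**Figure D3:**
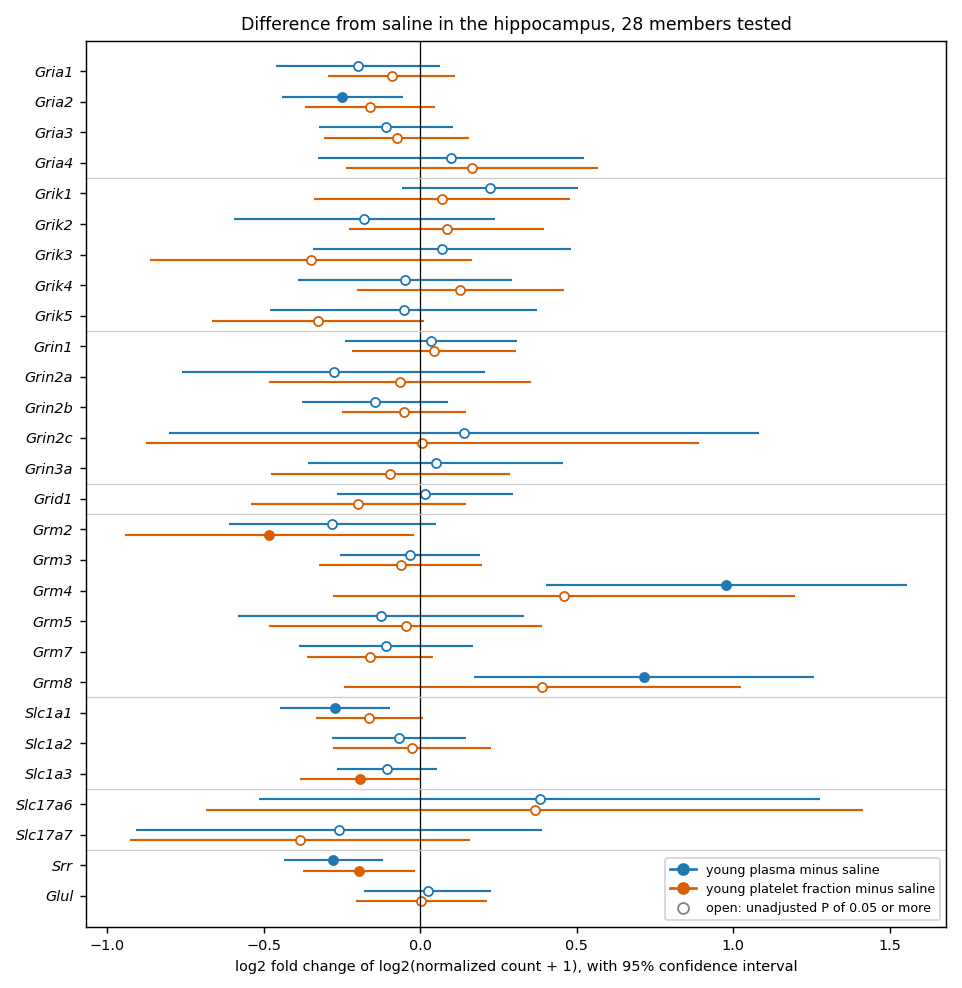
Log2 fold change of log2(normalized count + 1) against saline with 95% confidence intervals for the 28 tested genes, grouped by family, for young plasma (blue) and for the platelet fraction (orange), which share the 5 saline mice. Filled points passed an unadjusted P of 0.05 with limma, namely Gria2, Grm4, Grm8, Slc1a1 and Srr after young plasma and Grm2, Slc1a3 and Srr after the platelet fraction.

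Srr stood at 1360.2, 1015, 1126, 1087, 1038 and 1153 normalized counts in platelet fraction mice 7145, 7148, 7151, 7154, 7157 and 7595. In 5 of the 6 it lay below every saline mouse, and in mouse 7145 it lay above all of them. The fold was 0.873 (95% interval 0.771 to 0.989, P = 0.0346 with limma, exact permutation p = 0.0368). Without mouse 7145 the log2 fold change went from -0.20 to -0.25. Srr lost its call without saline mouse 7146 (log2 fold change -0.18), 7152 (-0.18) or 7155 (-0.19), and without platelet fraction mouse 7148 (-0.17), 7151 (-0.20), 7154 (-0.19) or 7157 (-0.17). It lost it also without the 5 libraries apart, where the log2 fold change was -0.12.

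Grm2, which lies on presynaptic axons outside the active zone, stood at 803, 786, 1244, 761 and 742 in saline. In the platelet fraction mice it stood at 738, 775, 910.5, 481, 378 and 532, with 4 of 6 below every saline mouse. The fold was 0.716 (95% interval 0.520 to 0.985, P = 0.0415 with limma, exact permutation p = 0.0974). Saline mouse 7152 stood far above the others, and without it the log2 fold change went from -0.48 to -0.34 and the call was lost. The call was also lost with edgeR (-0.45), without the 5 libraries apart (-0.41), without mice 7594 to 7596 (-0.49), without saline mouse 7143 (-0.50) or 7146 (-0.51) and without platelet fraction mouse 7154 (-0.42), 7157 (-0.35) or 7595 (-0.44). In the young plasma mice Grm2 stood at 551 to 875, and its fold there was 0.823 (0.654 to 1.03).

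Slc1a3, the transporter of astrocytes and radial glia, stood at 7185, 7806, 8568, 7086 and 7145 in saline and 7863, 7118, 6887, 6098, 5869.6 and 5958 after the platelet fraction. The fold was 0.875 (95% interval 0.766 to 0.999, P = 0.0480 with limma), with an exact permutation p of 0.0584, and 4 of 6 treated mice lay below every saline mouse. The call was lost with edgeR and DESeq2 (log2 fold change -0.19 with both and with limma), with limma and no filter (-0.19), without mice 7594 to 7596 (-0.18) and without the 5 libraries apart (-0.14). It was also lost without saline mouse 7143 (-0.21), 7146 (-0.18), 7152 (-0.15) or 7596 (-0.21) and without platelet fraction mouse 7151 (-0.21), 7154 (-0.17), 7157 (-0.16) or 7595 (-0.16). Of 8 astrocyte markers, 0 passed the threshold with limma, and they summed to 17319 to 22966 in saline and 17273 to 22575 after the platelet fraction. Slc1a1 stood at 1954, 2078, 1814, 1714, 1670.5 and 1819, a fold of 0.893 (0.794 to 1.005, P = 0.0588 with limma, exact permutation p = 0.0519). Gria2 ran from 6546 to 8549, a fold of 0.894 (0.774 to 1.03).

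Among the sparse receptors, Grm4 stood at 64.5, 37.8, 77.8, 21.9, 29.4 and 25.8 after the platelet fraction and Grm8 at 101, 77.7, 119, 72.2, 56.7 and 50.6. Their folds were 1.38 (0.824 to 2.30) and 1.31 (0.844 to 2.03), and neither passed the threshold. Mice 7145 and 7151 held the highest values of both receptors in this group. None of the tested ionotropic subunits passed it, the lowest being Grik3 (log2 fold change -0.35) and Grik5 (-0.33) and the highest Gria4 (0.17). Without the 5 libraries apart, Grik3 (-0.63) and the presynaptic receptor Grm7 (-0.26, against -0.16 with all mice) passed, and Grik3 passed also without saline mouse 7146 (-0.51). The 8 oligodendrocyte markers were all higher after this treatment too (summed levels 63085 to 101723), and of the 8 granule cell markers Trpc6 was lower. The granule cell markers summed to 2898 to 4462, against 2875 to 6618 in saline. Of 6 ependymal markers Cdhr3 (log2 fold change 1.65) and Rarres2 (0.73) were higher, and of 8 microglial markers Tmem119 (-0.26) was lower. The part of these cell types in the results was not tested.

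The treatments were compared directly after both tables were put on the scale of the saline libraries they share. None of the 28 members passed the threshold with limma, edgeR or DESeq2, where 260 of 13693 genes (1.9%) did with limma. Platelet fraction over young plasma, the fold was 1.06 (0.938 to 1.196) for Srr, 1.08 (0.962 to 1.21) for Slc1a1, 1.06 (0.934 to 1.21) for Gria2, 0.698 (0.439 to 1.11) for Grm4 and 0.798 (0.595 to 1.07) for Grm8. The nearest to the threshold was the kainate subunit Grik3 (fold 0.748, 0.556 to 1.01), which stood at 107 to 175 after young plasma and 58.5 to 152 after the platelet fraction. Its log2 fold change of -0.42 passed with TMM scaling (-0.43), without the 5 libraries apart (-0.58), without young plasma mouse 7147 (-0.48) or 7150 (-0.47) and without platelet fraction mouse 7145 (-0.48) or 7151 (-0.54). Without mouse 7151, Grm4 (-0.72) and Grm8 (-0.45) passed too.

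The make-up of each receptor and transporter family was then measured as each gene's share of the family's length-scaled normalized counts in a library, which does not depend on the size factor. In saline, AMPA subunits were 58.4% ± 3.84 Gria1, 30.8% ± 3.68 Gria2, 8.74% ± 0.882 Gria3 and 2.05% ± 0.384 Gria4 (SD, n = 5). Grin2 subunits were 57.3% ± 2.07 Grin2b and 34.5% ± 3.97 Grin2a. The plasma membrane transporters were 51.1% ± 2.06 Slc1a3, 34.5% ± 2.31 Slc1a2 and 14.4% ± 0.760 Slc1a1. The vesicular transporters were 75.9% ± 11.2 Slc17a7 and 23.2% ± 11.3 Slc17a6, with the widest spread between mice. These percentages depend on the length used. With the longest transcript as length, the saline means were 49.5% Gria1, 35.8% Gria2 and 12.8% Gria3. Those of Slc1a3 and Slc1a2 were then 58.3% and 23.2%.

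Of 75 shares compared between groups, 2 passed an unadjusted p of 0.05 and 0 passed an adjusted one. The Grm4 share of the 6 metabotropic receptors was 0.611% ± 0.216 in saline and 1.29% ± 0.249 after young plasma, with ranges of 0.447% to 0.978% and 1.01% to 1.74% that did not overlap (exact permutation p = 0.00216, adjusted p = 0.162). The Grm8 share was 0.820% ± 0.458 in saline and 1.33% ± 0.199 after young plasma (exact permutation p = 0.0390, adjusted p = 0.587). The Gria2 share of AMPA subunits was 30.8% in saline and 29.7% ± 2.497 after young plasma, within the spread of either group. With the longest transcript as length, the shares of Slc1a1 (young plasma against saline, exact permutation p = 0.0281) and Slc1a3 (platelet fraction against young plasma, exact permutation p = 0.0195) also passed the unadjusted threshold.

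Partners of these receptors were read from 57 related genes, of which 52 were tested in the hippocampus. They comprised auxiliary subunits of AMPA and kainate receptors, postsynaptic scaffolds and neuronal pentraxins, enzymes and carriers of glutamate and glutamine, enzymes and carriers of serine and D-serine, and further family members. After young plasma 1 was higher and 1 lower with limma, 2 of 52 where 3.35% of all genes passed, a share near the background. Nptx1, a secreted pentraxin that gathers AMPA receptors, went from 6645 ± 1057 to 5473 ± 776 normalized counts (SD, log2 fold change -0.28, SE 0.12), and Slc38a1, a glutamine carrier of neurons, from 972 ± 46.3 to 1094 ± 89.3 (log2 fold change 0.17, SE 0.07). After the platelet fraction 1 of 52 was higher (3.87% of all genes passed in either direction), Psat1 of the serine synthesis pathway, from 1225 ± 83.1 to 1414 ± 125 (log2 fold change 0.21, SE 0.08). Between the treatments 2 of 52 passed, against 1.9% of all genes, and Nptx1 was higher (log2 fold change 0.23, SE 0.10) and Slc38a5, a carrier of glutamine and serine, lower (log2 fold change -0.49, SE 0.22) after the platelet fraction. None of the 12 tested auxiliary subunits passed the threshold in a hippocampal comparison with limma, and the median log2 fold change over all tested related genes was -0.00026 after young plasma and -0.02 after the platelet fraction.

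**Figure D4:**
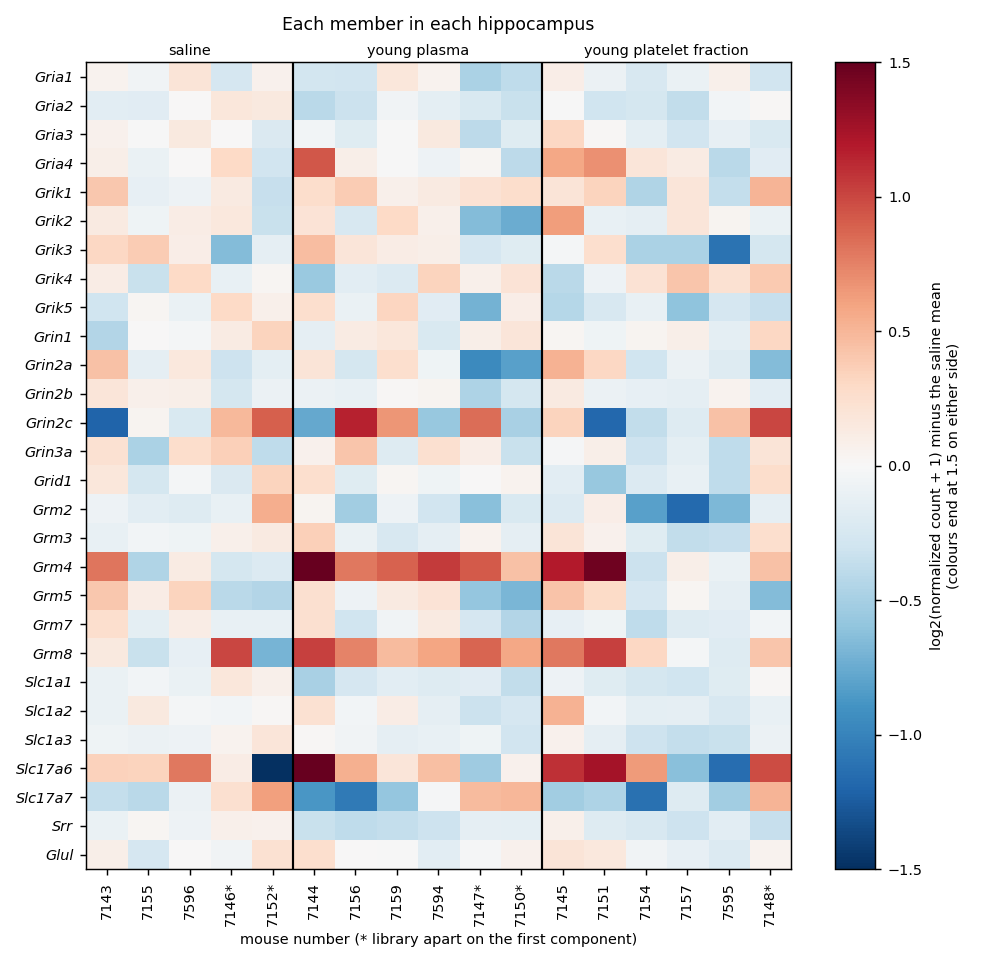
Difference of log2(normalized count + 1) from the saline mean for the 28 tested genes (rows) in each of the 17 hippocampi (columns, by group, asterisks for the 5 libraries apart on the first component), with colours ending at 1.5 on either side. Grm4 and Grm8 are above the saline mean in all 6 young plasma mice, and Grm5 is low and Slc17a7 high in the 5 libraries with an asterisk.

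Part of the variation between mice ran across the treatment groups. In the 5 libraries apart on the first component, Slc17a7 ran from 581 to 759 normalized counts, above the 226 to 487 of the other 12. Grm5 ran from 1068 to 1306, below the 1450 to 2321 of the others. The remaining 26 members overlapped between these sets. The share of all genes that separate the 2 sets is not given here, so the separation is not read as particular to these members. On the log2(normalized count + 1) scale, 7 members had a higher mean in the libraries apart within each of the 3 groups. These were Slc17a7, Grin2c, Grin1, Grid1, Slc1a1, Grm8 and Glul. Another 8 had a lower mean in each group, Grm5, Grin2a, Grik2, Grm4, Grin2b, Gria1, Gria3 and Slc1a2. In the platelet fraction group, mouse 7148 was the only library apart. Some differences were near 0, in young plasma 0.00058 for Glul, 0.0078 for Slc1a1 and 0.017 for Grid1 and Grm8, and in saline -0.016 for Slc1a2. The longest transcripts of the first set had a median of 4276 bases and 49.9% G and C, and those of the second set 8737 bases and 45.1%. These libraries were found from the expression of all genes, so the values are a description, and the part of transcript length or base composition was not tested.

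In isolated microglia, 10 of the 31 members had no read in any of the 7 libraries, among them Grin1, Grin2a, Grm2, Grm7 and Grm8. With no read in a library, up to 3 reads cannot be told from 0. A further 17 had reads in some libraries, and 4 in all of them (Glul, Slc1a3, Slc1a2 and Grm3). Of the 7 members that passed the filter of 10 normalized counts in 3 libraries, 0 passed an unadjusted P of 0.01 with limma, edgeR or DESeq2 and 0 an unadjusted P of 0.05 with limma, where 44 of 11320 genes (0.389%) passed 0.01 with limma.

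**Figure D5:**
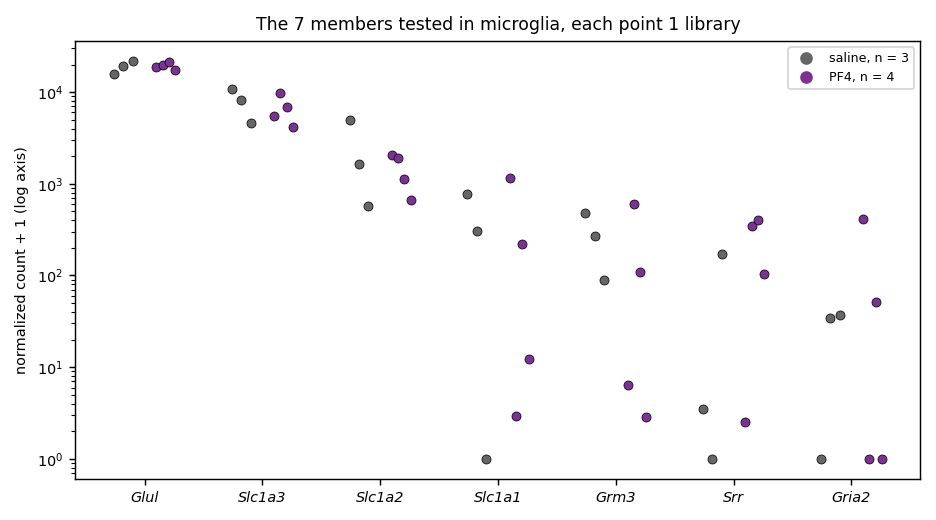
Normalized count plus 1 on a log axis for the 7 members tested in microglia, each point 1 library, for saline and PF4. Glul lies between 15789 and 22052 in every library, and Srr runs from 0 to 169 in saline and 1.52 to 406 after PF4.

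Glul stood at 15789, 19190 and 22052 normalized counts in saline microglia and 18779, 19694, 21576 and 17565 after PF4, a fold of 1.03 (0.791 to 1.33). Slc1a3 stood at 10836, 8278 and 4605 in saline and 5434, 9769, 6923 and 4217 after PF4 (fold 0.843, 0.490 to 1.45), and Slc1a2 at 5001, 1635 and 573 against 2060.3, 1911, 1133 and 658 (fold 0.782, 0.269 to 2.27). The groups overlapped for all 3. Srr stood at 2.48, 0 and 169 in saline and 1.52, 342, 406 and 102 after PF4, with 0 or a few counts in some libraries of both groups, and its 95% interval ran from 0.172-fold to 498-fold. Gria2 reached 407 in PF4 replicate 1 and was at most 49.8 in the others. The 8 astrocyte markers summed to 7793, 3706 and 1197 in the saline libraries and 6556, 11848, 3972 and 2125 in the PF4 libraries. The choroid plexus transcript Ttr stood at 197501 in saline replicate 2, 501960 in PF4 replicate 2 and 345809 in PF4 replicate 4, and between 641 and 884 in the others. Without those 3 libraries, 9 of 9885 genes and 0 of 6 tested members passed with limma, and the part of astrocyte or choroid plexus RNA in these values was not tested.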

How the data were processed

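RNA was sequenced from 17 hippocampi and 7 microglia isolates. The labels name a strand-specific poly(A) kit and the study's methods a modified Smart-Seq2 protocol, and which applies to which library is not settled by these sources. Per the study's methods and processing notes, the authors aligned reads with STAR to mm10, counted them with RSEM and compared groups with DESeq2, and whether strand was used in counting is not given in the sources used here. The deposited signal values are normalized counts, made by the authors by dividing the counts of each of 24411 genes by a size factor of the library. Whole reads were recovered for 100% of values (tolerance 0.01). The authors' own comparison columns (fold changes and p-values) were not used.

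The hippocampal values came in a plasma table and a platelet table that share the saline mice, and values printed here are on the scale of the plasma table (platelet table times 0.9949). Each pair of groups was fitted with limma 3.58.1 (trend, two-sided) in R 4.3.3 on log2(normalized count + 1), leaving out genes that did not reach 10 normalized counts in 5 hippocampi (in microglia, in 3 isolates). Fold changes are on that scale and understate the change of sparse genes. As in the study's methods, the threshold was an unadjusted P of 0.05 in hippocampus and 0.01 in microglia, with the Benjamini-Hochberg adjusted p of 0.05 beside it, and single members past it were also tested by a two-sided exact permutation test over mice. Family shares (75 tests) used the same exact test.

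The 31 members and all gene lists were chosen with earlier results of these data known. All members are accounted for, with values by mouse for those past the threshold in a hippocampal comparison and for the highest per kb in each family, and of the related lists at most 4 genes past the threshold each. Grik3, Slc17a6 and the flagged members were added after their values were seen. Exon lengths and positions came from GENCODE M21 (GRCm38) and promoters from RefSeq GRCm38.p6.

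Alternatives were a pseudocount of 0.5 or 5, no filter, a filter at 50, TMM scaling, count models of the whole reads with DESeq2 1.42.0 or edgeR 4.0.16, all hippocampal groups in 1 fit, each library left out, hippocampi without mice 7594 to 7596, which are numbered apart from the rest, and a replicate block in microglia. Leaving out the 5 libraries apart on the first component, and the 3 microglia libraries high in Ttr, was chosen after seeing the data. The fits were tested on simulated data. No source used here names molecular identifiers, so read floors cover counting error only. The labels give each hippocampus its own mouse number, and the study counts each microglia isolate as a mouse.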

Additional observations from a re-analysis of the deposited data

Results flagged for a closer look

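In 7 of 91 groups of 4 to 6 libraries, 1 library lay farther from the others than Dixon's 95% limit allows, where chance gives about 1 in 20. Young plasma mouse 7144 was high for 3 members, with Gria4 at 434 normalized counts (173 to 242 in the others), Grm4 at 97.4 (38.0 to 58.1) and Slc17a6 at 385 (88.8 to 187). Its neocortex markers summed to 1847, the highest of the 17 hippocampi. The next highest sums were those of platelet fraction mice 7151 (1536) and 7145 (1358), whose Grm4 and Grm8 were the highest of their group. Whether these sums go with Grm4 over all mice was not tested. The thalamus and habenula markers of mouse 7144 summed to 1107, within the range of its group, but this list summed higher still in isolated microglia. Platelet fraction mouse 7145 was high for Grik2 at 535 (314 to 393) and Slc1a2 at 11210.2 (6621 to 7599). Saline mouse 7152 stood at 1244 for Grm2 (742 to 803), and PF4 microglia replicate 1 at 407 for Gria2 (0 to 49.8). The dentate granule cell markers of mouse 7152 summed to 6618, the highest of the 17 hippocampi. The part of neighbouring tissue or of granule cells in these values was not tested.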

How the results depend on the processing

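No call of a member reversed its direction under any alternative run. Against saline, the 456 genes past the threshold after young plasma became 300 without the 5 libraries apart and 297 (without plasma mouse 7156) to 617 (without saline mouse 7143) with 1 library left out, and 298 without saline mouse 7146. The 5 members became 3 without the 5 libraries apart, losing Slc1a1 and Gria2, and 5 or 6 with 1 library left out. After the platelet fraction, 527 genes became 344 (without mouse 7157) to 870 (without mouse 7145), with 792 without mouse 7148, and the 3 members became 0 (without saline mouse 7152) to 4 (without mouse 7145), 1 with edgeR, 1 without mice 7594 to 7596, 2 with DESeq2, no filter or the 5 libraries left out. Between the treatments, 260 genes became 473 with no filter and 206 to 441 with 1 library left out (438 without plasma mouse 7159, 441 without platelet mouse 7148), and 0 members became 1 with TMM scaling, 1 without the 5 libraries and 0 to 3 with 1 library left out. In microglia, 44 genes became 179 with DESeq2 (41 past the adjusted p), 9 without the 3 libraries high in Ttr and 22 (without PF4 replicate 4) to 123 (without saline replicate 4), with 25 without saline replicate 3 and 71 without PF4 replicate 3, and members stayed at 0 in all 16 alternatives. With the replicate block, 29 genes and 0 members passed in microglia, but same-numbered libraries had correlations of deviations of 0.136, 0.0586 and 0.0321, so the numbers were not taken as pairs. Of the 3 PF4 libraries with a saline library of the same number, 2 correlated best with it. The 2 shares past an unadjusted 0.05 became 4 with the longest transcript as length and 1 to 6 with 1 mouse left out. The cause of these changes was not tested, beyond the smaller number of mice or of genes tested where these were left out.

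Members that passed only in alternatives numbered 3 after young plasma (Grik1, Grm2, Gria1), 6 after the platelet fraction (Grik3, Grm7, Grik5, Slc1a1, Grm8, Slc17a7) and 5 between the treatments (Grik3, Grik5, Grid1, Grm4, Grm8). The share of all genes that passed only in alternatives is not given here, so these counts are not read as a result about the members. Grm4 rests on 18 to 92 reads a mouse in saline and young plasma.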
